A study of Mus musculus with 10 samples.

Results

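Microglia are the resident macrophages of the retina, and 37 of their marker genes were examined in the retinas of BALB/c mice, an albino strain, after light damage. The markers were taken as a list of symbols. Of these 37 genes, 36 had a row among the 19999 genes of the count table and 33 were among the 16852 genes with enough reads to test. Slc2a5, a fructose transporter of microglia, was not analysed here. The markers fall into 3 classes. In the first are 6 genes of resting microglia (Tmem119, Sall1, Siglech, Gpr34, Olfml3 and Slc2a5). In the second are 10 genes that activated microglia and macrophages raise (Trem2, Cd68, Lyz2, Cd14, Lgals3, Spp1, Gpnmb, Lpl, Itgax and Msr1). The last holds 21 genes taken as shared by microglia and macrophages in any state, among them Mrc1, which is more typical of perivascular macrophages. Total RNA was sequenced from 5 retinal libraries of a light-induced damage model given vehicle (LD-vehicle) and 5 of controls given vehicle (CTRL-vehicle). The labels give a vehicle in both groups and do not say what it was, nor the light dose, the time after light, the age or the sex. The design text names a test agent, A74, and libraries treated with it are not analysed here. The genotype of the strain is not described further, and nothing says whether a library holds 1 retina, a pair or a pool. The series title names the receptor P2RX7 and the cGAS-STING pathway as the study's subject.

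In a healthy retina, microglia sit in the synaptic layers with fine processes, and they are kept in a resting state by signals from neurons and by their own transcription factors. When photoreceptors die, microglia move towards the photoreceptor layer, take up dead cells, and are joined by macrophages from the blood. Activated microglia classically lower resting genes such as Tmem119 and raise genes of phagocytosis and lipid handling, a change that runs in part through the receptor TREM2 and its adaptor TYROBP.

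All 10 libraries carry 1 batch entry. The libraries held between 17900227 and 20337329 counts in light damage and between 14652535 and 20699236 counts in controls, so that 1 count was worth between 0.0473 and 0.0685 CPM (the unit used throughout, counts scaled to a common library total by TMM). LD-vehicle replicates 1 and 2 stood apart from all other libraries. They held 17174 and 20414 counts of Xist, the RNA of the inactive X chromosome, against 1 to 6 in LD-vehicle replicates 3 to 5 and 1 to 9 in controls. They also held the most lens RNA: the mean centred log2 CPM of 9 lens genes was 6.44, 5.56, 0.85, 0.48 and -1.10 in LD-vehicle replicates 1 to 5, against -0.94, -3.42, -3.59, -3.30 and -0.99 in CTRL-vehicle replicates 1 to 5. Markers of retinal ganglion cells were present throughout, at a summed 1199 to 1314 CPM in light damage and 1039 to 1469 CPM in controls. Results are therefore also given without LD-vehicle replicates 1 and 2.

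The markers were low in these libraries, and their fold changes in light damage were all positive, with 1 of them past the test. Summed over the 36 genes, they made up 228, 308, 340, 163 and 166 CPM in LD-vehicle replicates 1 to 5 and 165, 139, 163, 159 and 128 CPM in CTRL-vehicle replicates 1 to 5. The sums of LD-vehicle replicates 4 and 5 are close to the highest controls, and those of the other light-damaged libraries are well above all controls. In LD-vehicle replicate 1, Gpnmb and Olfml3 made up 35.5 and 33.1 CPM of the sum, against 6.24 and 10.3 CPM in CTRL-vehicle replicate 1. Every tested marker had a positive log2 fold change (33 of 33), against 50.3% of all genes tested. Their median log2 fold change was 0.58, against 0.00 over all genes, with a range of 0.19 for Inpp5d to 1.70 for Gpnmb. By the quasi-likelihood test of edgeR, with p-values adjusted over all genes by the Benjamini-Hochberg method, 1 marker, Coro1a, rose at an adjusted p under 0.05 and 0 fell, where 5.32% of all genes were called higher and 7.85% lower. Over all genes those calls were 896 higher and 1323 lower, and with library totals alone as the scale they were 1147 higher and 912 lower. Before adjustment, 18 of the 33 markers were higher with p under 0.05, where 14% of all genes were. DESeq2 called 6 markers higher and 0 lower, where it called 7.77% of all genes higher and 9.51% lower. In whole tissue, more cells of a type and more RNA per cell cannot be told apart.

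The light-damaged libraries differed widely among themselves. LD-vehicle replicate 3 lay above every control for 31 of the 33 markers and LD-vehicle replicate 2 for 29. The other light-damaged libraries did so for fewer markers: 9 in LD-vehicle replicate 1, 7 in replicate 4 and 4 in replicate 5. Over all genes tested, the share above every control was 23.2% in LD-vehicle replicate 3, 20.2% in replicate 2, 21.8% in replicate 1, 19.3% in replicate 4 and 16.4% in replicate 5. The highest of all 10 values came from LD-vehicle replicate 3 for 22 markers, from replicate 2 for 8, from replicate 1 for 2 and from replicate 5 for 1. None of the controls held the highest value of a marker. Without LD-vehicle replicate 3, 30 of 33 markers kept a positive fold change and the median was 0.38, with Cd68, Fcer1g and Ly86 at -0.018, -0.020 and -0.051. Without LD-vehicle replicates 1 and 2, 32 of 33 were positive and the median was 0.58, with Sall1 at -0.015. Coro1a was the 1 marker called in each of these fits, where 2.34% of all genes were called higher without LD-vehicle replicate 3 and 0.782% without LD-vehicle replicates 1 and 2.

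**Figure D1:**
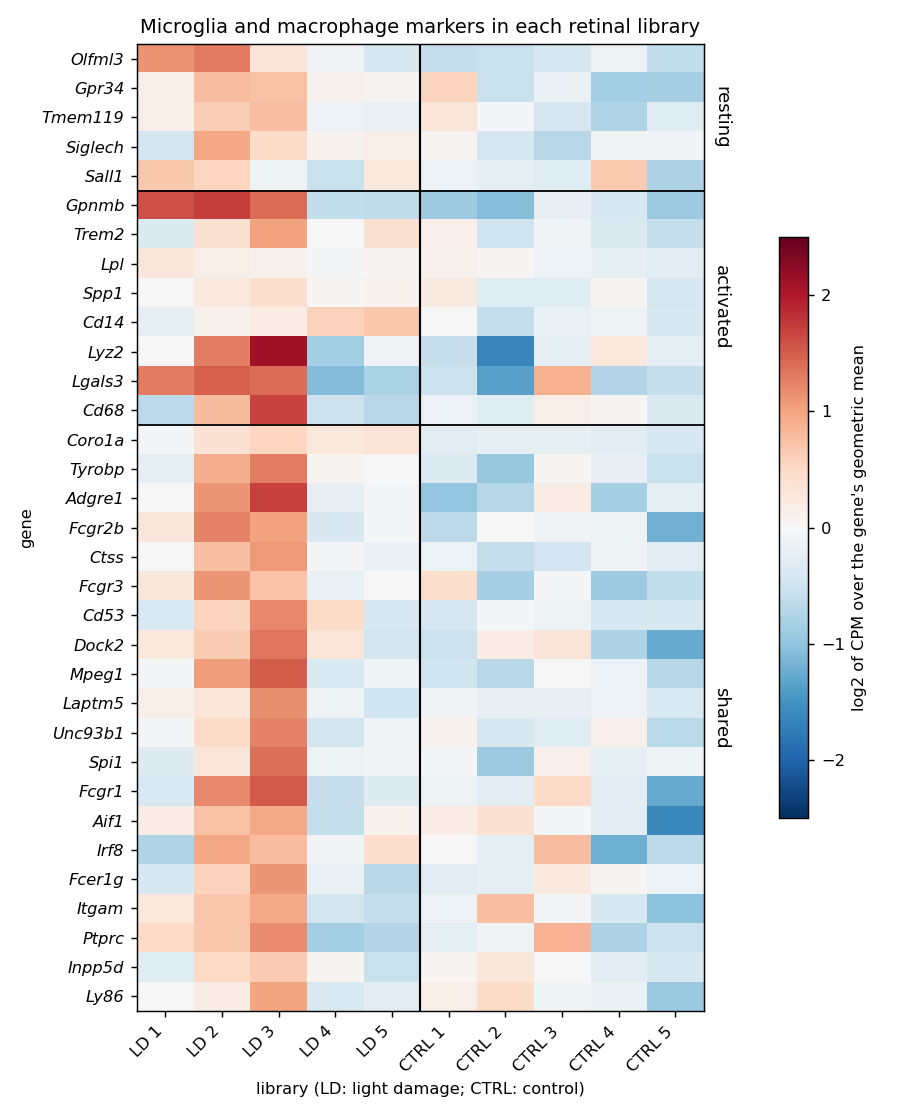
Level of the 33 tested markers in each library, as log2 of CPM over the geometric mean of the gene, with genes grouped as resting, activated or shared and ordered by p within each class. LD-vehicle replicates 2 and 3 are above the gene's mean for nearly all markers, and LD-vehicle replicates 4 and 5 resemble the controls for most.

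**Figure D2:**
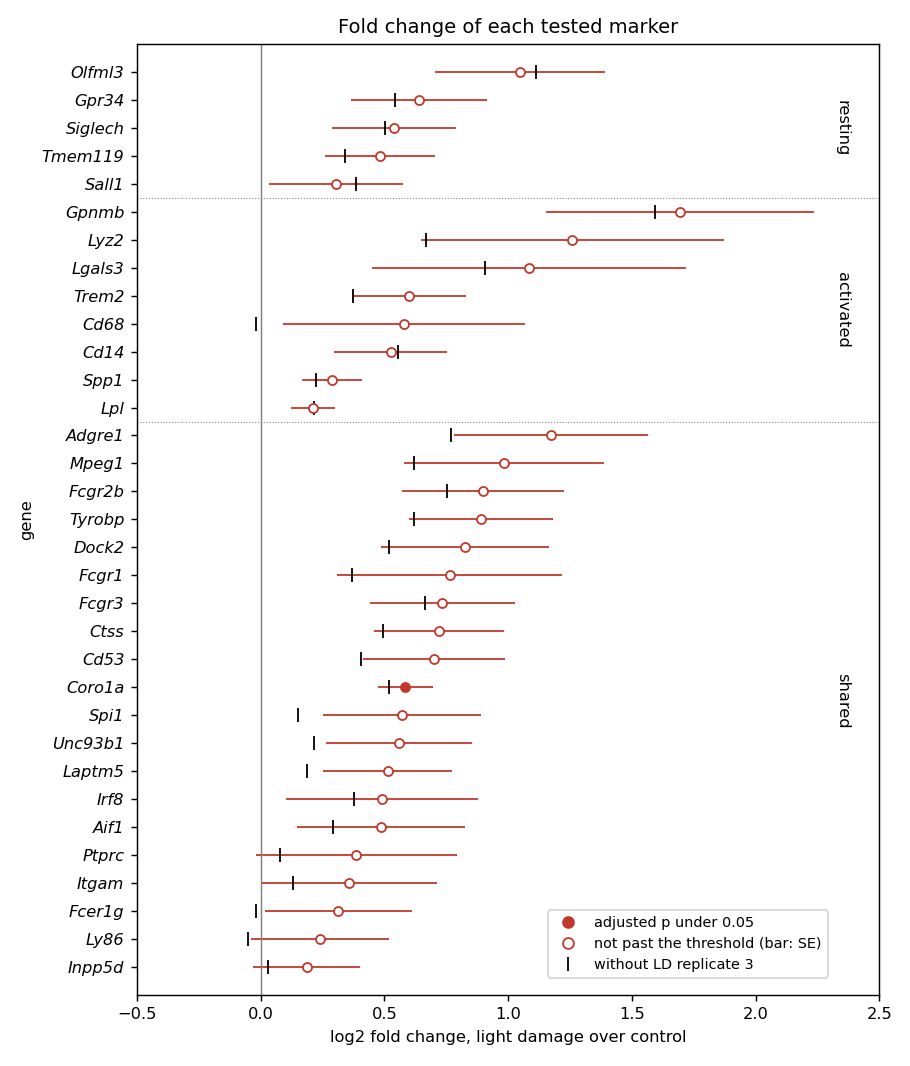
Log2 fold change of light damage over control for each tested marker, with bars for the standard error; the filled point is Coro1a, the marker with an adjusted p under 0.05, and open points did not pass. Black ticks give the fold change without LD-vehicle replicate 3, which lies nearer 0 for most markers, below 0 for Cd68, Fcer1g and Ly86, and above the full value for Olfml3, Cd14, Sall1 and Lpl.

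The transcription factors that set the identity of these cells did not pass the test. Spi1 encodes PU.1, which myeloid cells need to form. Irf8 acts with it in microglia, and Sall1 holds microglia in their resting identity. Their log2 fold changes were 0.57 for Spi1 (SE 0.32, adjusted p = 0.242), 0.49 for Irf8 (SE 0.39, adjusted p = 0.425) and 0.30 for Sall1 (SE 0.27, adjusted p = 0.473). Spi1 stood at 1.06, 1.65, 3.45, 1.22 and 1.28 CPM in LD-vehicle replicates 1 to 5, against 1.31, 0.707, 1.46, 1.14 and 1.23 CPM in CTRL-vehicle replicates 1 to 5. LD-vehicle replicate 3 was far above all other libraries, replicate 2 was just above the controls, and replicates 1, 4 and 5 lay within the control range.

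PU.1 binds a purine-rich core, GAGGAA, and promoter sequences are shown for markers with and without it. RefSeq promoters of the GRCm38.p6 build were found for 28 of the 37 markers, and the 250 bases before the start of each were searched on both strands. GAGGAA, or TTCCTC on the other strand, was present in 14 of the 28 (50.0%), against 6252 of 27025 genes in the same table (23.1%). The core promoter motif TATAAA, searched for comparison, was present in 5 of the 28 (17.9%), against 13% of all genes. The GC content of these windows had a median of 49.8% over the markers and 52.0% over all genes. A match describes letters in this window and is not a binding site. The windows of 4 markers are printed, from 5′ to 3′ along the gene, with the matched letters in capitals. Those of Ctss (chr3:95526536-95526785, plus strand), Laptm5 (chr4:130913066-130913315, plus strand) and Trem2 (chr17:48346151-48346400, plus strand) hold 1 match each, and that of Coro1a (chr7:126704817-126705066, minus strand), the marker that passed the test, holds none.
Ctss: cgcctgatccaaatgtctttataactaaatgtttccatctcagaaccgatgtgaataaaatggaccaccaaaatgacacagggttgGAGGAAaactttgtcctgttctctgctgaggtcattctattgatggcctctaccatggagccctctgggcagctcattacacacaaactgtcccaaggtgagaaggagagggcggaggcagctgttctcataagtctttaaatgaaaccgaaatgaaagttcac
Laptm5: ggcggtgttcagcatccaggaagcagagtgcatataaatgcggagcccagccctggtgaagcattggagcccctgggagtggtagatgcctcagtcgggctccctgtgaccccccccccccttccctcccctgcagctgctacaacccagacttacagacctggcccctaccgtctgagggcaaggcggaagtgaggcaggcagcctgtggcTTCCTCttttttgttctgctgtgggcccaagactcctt
Trem2: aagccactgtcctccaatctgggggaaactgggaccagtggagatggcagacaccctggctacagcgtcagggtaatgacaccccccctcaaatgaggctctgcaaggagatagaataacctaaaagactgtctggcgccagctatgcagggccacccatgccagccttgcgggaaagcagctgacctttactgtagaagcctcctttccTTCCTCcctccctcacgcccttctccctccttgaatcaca
Coro1a: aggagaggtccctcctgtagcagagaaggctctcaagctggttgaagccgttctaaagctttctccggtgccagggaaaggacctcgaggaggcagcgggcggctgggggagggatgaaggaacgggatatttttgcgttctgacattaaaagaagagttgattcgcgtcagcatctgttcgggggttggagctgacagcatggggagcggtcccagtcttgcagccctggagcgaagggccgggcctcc

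The cytoskeletal and signaling proteins include the marker that rose. Coro1a (coronin 1A, ENSMUSG00000030707) is an actin-binding protein of leukocytes, also abundant in T and B cells. It stood at 9.56, 12.7, 14.2, 11.7 and 12.3 CPM in LD-vehicle replicates 1 to 5, against 8.15, 8.36, 8.35, 8.12 and 7.4 CPM in CTRL-vehicle replicates 1 to 5. All 5 light-damaged libraries lay above all 5 controls, which was so for 4.31% of all genes, while 5.48% lay wholly below the controls. The group means were 12.1 ± 1.7 CPM in light damage and 8.08 ± 0.394 CPM in controls (SD, n = 5 each), and the gene passed the test (log2 fold change 0.58, SE 0.11, adjusted p = 0.00468, edgeR). The fold change lay between 0.52 and 0.66 when each library was left out in turn, and it was 0.66 without LD-vehicle replicates 1 and 2 (adjusted p = 0.0193, edgeR). Lymphocyte markers were measured beside it: their mean centred log2 CPM, over the 2 of 10 that could be tested, was -0.35, 0.36, 1.06, 0.28 and -0.29 in LD-vehicle replicates 1 to 5, against -0.12, -0.01, 0.26, -0.62 and -0.58 in CTRL-vehicle replicates 1 to 5. The T cell kinase Lck had 20, 25, 42, 14 and 16 counts in LD-vehicle replicates 1 to 5, against 22, 6, 17, 13 and 16 counts in CTRL-vehicle replicates 1 to 5, and the T cell receptor subunit Cd3e had 0 in all 10 libraries. The part of lymphocytes or of other cell types in the level of Coro1a was not tested. LD-vehicle replicates 4 and 5, above all controls for Coro1a, had summed marker levels of 163 and 166 CPM, against 128 to 165 CPM in controls. Part of the exonic sequence of Coro1a overlaps Bola2 on the opposite strand, and the sources used here do not say whether the counts used strand. Bola2 itself had means of 11.5 ± 1.26 CPM in light damage and 9.59 ± 1.99 CPM in controls (log2 fold change 0.26, SE 0.13, adjusted p = 0.194, edgeR).

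Dock2 (ENSMUSG00000020143), an activator of the GTPase Rac in leukocyte migration, stood at 1.57, 2.02, 3.31, 1.61 and 0.946 CPM in LD-vehicle replicates 1 to 5, against 0.905, 1.48, 1.63, 0.761 and 0.548 CPM in CTRL-vehicle replicates 1 to 5. LD-vehicle replicate 3 was the highest, LD-vehicle replicates 1, 4 and 5 lay within the control range, and the gene did not pass the test (log2 fold change 0.82, SE 0.34, adjusted p = 0.115). Aif1, which encodes the actin-bundling protein IBA1 used to stain microglia, did not pass (log2 fold change 0.49, SE 0.34, adjusted p = 0.352). Inpp5d encodes SHIP1, a lipid phosphatase that restrains signaling below immune receptors, and had the smallest fold change of the tested markers (log2 fold change 0.19, SE 0.22, adjusted p = 0.596).

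Of the 10 tested surface receptors and membrane proteins, none was called by edgeR, 8 were higher with an unadjusted p under 0.05, and DESeq2 called 2, Adgre1 and Gpnmb. Over all genes, edgeR called 5.32% higher, 14% were higher with an unadjusted p under 0.05, and DESeq2 called 7.77% higher. The median log2 fold change of the 10 receptors and membrane proteins was 0.57. Adgre1 (ENSMUSG00000004730) encodes F4/80, the classical surface antigen of mouse macrophages. It stood at 1.45, 3.15, 4.78, 1.27 and 1.45 CPM in LD-vehicle replicates 1 to 5, against 0.754, 0.90, 1.68, 0.824 and 1.23 CPM in CTRL-vehicle replicates 1 to 5. LD-vehicle replicates 2 and 3 lay above all controls, and the others lay within the control range (log2 fold change 1.17, SE 0.39, adjusted p = 0.0643, edgeR).

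Trem2 (ENSMUSG00000023992), a lipid-sensing receptor of phagocytic microglia, stood at 2.4, 4.03, 6.2, 3.05 and 4.01 CPM in LD-vehicle replicates 1 to 5, against 3.37, 2.19, 2.93, 2.41 and 2.06 CPM in CTRL-vehicle replicates 1 to 5. LD-vehicle replicates 2, 3 and 5 were above all controls and replicates 1 and 4 were not (log2 fold change 0.60, SE 0.23, adjusted p = 0.093). Gpnmb (ENSMUSG00000029816), a glycoprotein of lipid-laden macrophages that pigment cells also make for their melanosomes, had the largest fold change of the markers. It stood at 35.5, 38.6, 30.8, 7.59 and 7.57 CPM in LD-vehicle replicates 1 to 5, against 6.24, 5.59, 10.1, 8.88 and 6.24 CPM in CTRL-vehicle replicates 1 to 5. LD-vehicle replicates 1 to 3 were far above the controls and replicates 4 and 5 were among them (log2 fold change 1.70, SE 0.54, adjusted p = 0.0763). DESeq2 called it (adjusted p = 0.00977), and without LD-vehicle replicates 1 and 2 its log2 fold change was 1.06 (adjusted p = 0.324). Over 11 genes of pigment epithelium and melanocytes, the mean centred log2 CPM was also highest in LD-vehicle replicates 1 to 3. It was 1.41, 0.84, 0.22, -0.09 and -0.51 in LD-vehicle replicates 1 to 5, against -0.43, -0.08, -0.04, -0.09 and -1.24 in CTRL-vehicle replicates 1 to 5. Single genes differed in LD-vehicle replicate 3. There Dct stood at 29.8 CPM, above every control, and Rpe65 at 3.98 CPM, within the control range of 1.58 to 5.27 CPM. The part of these genes in the level of Gpnmb was not tested.

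Among the resting receptors, Gpr34 (ENSMUSG00000040229), a lysophospholipid receptor, stood at 1.9, 2.9, 2.84, 1.83 and 1.78 CPM in LD-vehicle replicates 1 to 5, against 2.51, 1.16, 1.52, 0.951 and 0.959 CPM in CTRL-vehicle replicates 1 to 5. CTRL-vehicle replicate 1 was above LD-vehicle replicates 1, 4 and 5, and the other controls were below all light-damaged libraries (log2 fold change 0.64, SE 0.27, adjusted p = 0.127). Tmem119 (ENSMUSG00000054675), a membrane protein that separates resident microglia from other macrophages, stood at 4.14, 5.69, 6.25, 3.38 and 3.28 CPM in LD-vehicle replicates 1 to 5, against 4.58, 3.67, 2.77, 2.22 and 3.02 CPM in CTRL-vehicle replicates 1 to 5. The groups overlapped widely, with LD-vehicle replicates 2 and 3 above all controls (log2 fold change 0.48, SE 0.22, adjusted p = 0.153). Siglech, a sialic acid-binding lectin of microglia, did not pass (log2 fold change 0.54, SE 0.25, adjusted p = 0.16). Cd14, the co-receptor for bacterial lipopolysaccharide, was the marker that peaked in LD-vehicle replicate 5, at 1.23, 1.55, 1.66, 2.16 and 2.34 CPM in LD-vehicle replicates 1 to 5, against 1.46, 0.965, 1.3, 1.33 and 1.1 CPM in CTRL-vehicle replicates 1 to 5. LD-vehicle replicates 2 to 5 lay above all controls and replicate 1 did not (log2 fold change 0.53, SE 0.23, adjusted p = 0.132). Cd53, a tetraspanin of leukocytes, did not pass (log2 fold change 0.70, SE 0.29, adjusted p = 0.112). The pan-leukocyte phosphatase Ptprc (CD45) and the integrin Itgam (CD11b) had the smallest fold changes of the receptors, 0.39 (SE 0.41, adjusted p = 0.555) and 0.36 (SE 0.35, adjusted p = 0.524).

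Also among the receptors, 3 genes of activated or border macrophages were too low to test. Itgax (CD11c), an integrin of activated microglia and dendritic cells, had 7, 21, 27, 11 and 3 counts in LD-vehicle replicates 1 to 5, against 3, 5, 8, 3 and 2 counts in CTRL-vehicle replicates 1 to 5. The scavenger receptor Msr1 had 3, 13, 17, 2 and 2 counts in LD-vehicle replicates 1 to 5, against 4, 1, 11, 3 and 0 counts in CTRL-vehicle replicates 1 to 5. The mannose receptor Mrc1 (CD206), typical of perivascular macrophages, had 14, 16, 5, 2 and 5 counts in LD-vehicle replicates 1 to 5, against 2, 1, 2, 6 and 0 counts in CTRL-vehicle replicates 1 to 5. Itgax and Msr1 were highest in LD-vehicle replicate 3 and Mrc1 in replicates 1 and 2, and for each of the 3 some light-damaged libraries lay within the control range.

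**Figure D3:**
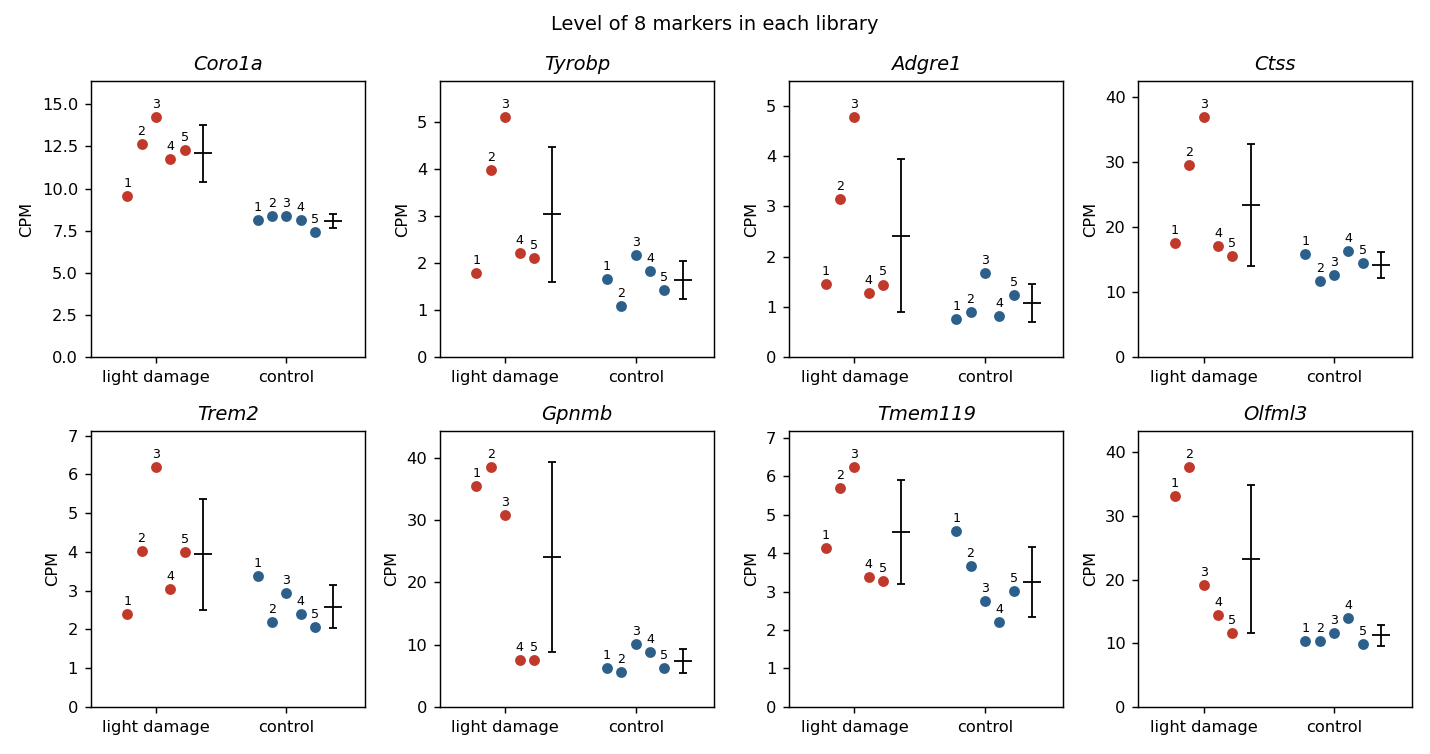
CPM of 8 markers in each library, with the replicate number beside each point and the mean ± SD of each group to its right. The groups do not overlap for Coro1a; for the other 7 markers the light-damaged libraries spread over and above the controls, with LD-vehicle replicates 1 and 2 on top for Olfml3 and Gpnmb and LD-vehicle replicate 3 on top for Tyrobp, Adgre1, Ctss, Trem2 and Tmem119.

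The Fc receptors bind antibody, and the activating ones, like TREM2, signal through adaptors with an immunoreceptor tyrosine-based activation motif (ITAM). None of these 5 genes was called by edgeR, 3 were higher with an unadjusted p under 0.05, DESeq2 called Tyrobp alone, and their median log2 fold change was 0.76. Of all genes, 14% were higher with an unadjusted p under 0.05, and DESeq2 called 7.77% higher. The adaptor Tyrobp (ENSMUSG00000030579, DAP12) stood at 1.79, 3.98, 5.11, 2.22 and 2.11 CPM in LD-vehicle replicates 1 to 5, against 1.66, 1.09, 2.17, 1.84 and 1.44 CPM in CTRL-vehicle replicates 1 to 5. LD-vehicle replicates 2, 3 and 4 were above all controls, and its adjusted p narrowly missed the threshold (log2 fold change 0.89, SE 0.29, adjusted p = 0.0546, edgeR; adjusted p = 0.0305, DESeq2). The inhibitory receptor Fcgr2b (ENSMUSG00000026656) stood at 1.34, 2.59, 2.22, 0.831 and 1.06 CPM in LD-vehicle replicates 1 to 5, against 0.704, 1.09, 1.03, 1.01 and 0.48 CPM in CTRL-vehicle replicates 1 to 5. LD-vehicle replicates 1, 2 and 3 were above all controls and replicates 4 and 5 were within their range (log2 fold change 0.90, SE 0.33, adjusted p = 0.0779). The activating receptor Fcgr3 (ENSMUSG00000059498) stood at 3.19, 5.58, 4.31, 2.33 and 2.62 CPM in LD-vehicle replicates 1 to 5, against 3.57, 1.48, 2.55, 1.4 and 1.71 CPM in CTRL-vehicle replicates 1 to 5. LD-vehicle replicates 2 and 3 were above all controls, and CTRL-vehicle replicate 1 was above the remaining light-damaged libraries (log2 fold change 0.73, SE 0.29, adjusted p = 0.108). Fcgr1, the high-affinity receptor, did not pass (log2 fold change 0.76, SE 0.45, adjusted p = 0.279). Fcer1g, the gamma chain that Fc receptors share, did not pass either (log2 fold change 0.31, SE 0.30, adjusted p = 0.505). Fcgr2b, Fcgr3 and Fcgr4 are close in sequence, so how reads were divided between them is uncertain.

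The lysosome and phagosome markers held 1 gene called by DESeq2, Ctss, and none by edgeR, with 2 of 6 higher at an unadjusted p under 0.05. Of all genes, DESeq2 called 7.77% higher, and 14% were higher at an unadjusted p under 0.05. The median log2 fold change of the 6 markers was 0.65, which was 0.35 without LD-vehicle replicate 3. LD-vehicle replicate 3 was the highest library for all 6. Ctss (ENSMUSG00000038642), a cathepsin that cuts the invariant chain for antigen presentation, stood at 17.6, 29.6, 37, 17.2 and 15.6 CPM in LD-vehicle replicates 1 to 5, against 15.9, 11.7, 12.7, 16.4 and 14.5 CPM in CTRL-vehicle replicates 1 to 5. LD-vehicle replicates 1 to 4 were above all controls and replicate 5 was within their range (log2 fold change 0.72, SE 0.26, adjusted p = 0.101, edgeR; adjusted p = 0.0424, DESeq2). Mpeg1, a pore-forming protein of the phagosome, had means of 14.4 ± 8.68 CPM in light damage and 7.32 ± 1.66 CPM in controls (SD, n = 5 each; log2 fold change 0.98, SE 0.40, adjusted p = 0.143, edgeR). Cd68, the lysosomal glycoprotein most used as a sign of phagocytic activity, stood at 2.01, 5.43, 10.2, 2.16 and 1.95 CPM in LD-vehicle replicates 1 to 5, against 2.87, 2.57, 3.53, 3.23 and 2.47 CPM in CTRL-vehicle replicates 1 to 5. LD-vehicle replicates 1, 4 and 5 were below every control, and replicates 2 and 3 were above every control (log2 fold change 0.58, SE 0.49, adjusted p = 0.461). Lyz2 (lysozyme M) stood at 5.26, 12.7, 22.7, 2.94 and 4.95 CPM in LD-vehicle replicates 1 to 5, against 3.52, 1.67, 4.45, 6.34 and 4.45 CPM in CTRL-vehicle replicates 1 to 5, with the highest values in LD-vehicle replicates 2 and 3 (log2 fold change 1.26, SE 0.61, adjusted p = 0.207). Its near copy Lyz1 had at most 2 counts in light damage and 7 in controls. Laptm5, a lysosomal regulator of immune receptors, and Unc93b1, which carries nucleic acid-sensing Toll-like receptors to the endosome, had log2 fold changes of 0.51 (SE 0.26, adjusted p = 0.212) and 0.56 (SE 0.29, adjusted p = 0.225).

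Among the secreted markers, edgeR called none of 5, 3 were higher with an unadjusted p under 0.05, and DESeq2 called Olfml3. Of all genes, 14% were higher with an unadjusted p under 0.05, and DESeq2 called 7.77% higher. The median log2 fold change of the secreted markers was 0.29. Olfml3 (ENSMUSG00000027848), an extracellular olfactomedin-like protein of resting microglia, stood at 33.1, 37.7, 19.2, 14.4 and 11.6 CPM in LD-vehicle replicates 1 to 5, against 10.3, 10.4, 11.6, 14 and 9.94 CPM in CTRL-vehicle replicates 1 to 5. LD-vehicle replicates 1 and 2 were the highest, replicates 3 and 4 were above all controls by less, and replicate 5 lay among the controls (log2 fold change 1.05, SE 0.34, adjusted p = 0.0807, edgeR; adjusted p = 0.0157, DESeq2). Without LD-vehicle replicates 1 and 2, its log2 fold change was 0.43 (adjusted p = 0.149). The mean centred log2 CPM over 10 connective tissue genes was also highest in LD-vehicle replicates 1 and 2. It was 1.23, 1.10, -0.02, 0.24 and -0.66 in LD-vehicle replicates 1 to 5, against -1.20, -0.69, -0.11, 0.50 and -0.38 in CTRL-vehicle replicates 1 to 5. Of these 10 genes, 6 peaked in LD-vehicle replicate 1 or 2 and 3 in a control. The collagens Col1a1 and Col3a1 peaked in a control, with log2 fold changes of -1.43 (SE 0.75, adjusted p = 0.237, edgeR) and -1.23 (SE 0.68, adjusted p = 0.263, edgeR). The part of lens and connective tissue RNA in the level of Olfml3 was not tested.

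Spp1 (ENSMUSG00000029304), osteopontin, is a matrix protein of activated microglia that a class of retinal ganglion cells also makes. It stood at 26.7, 31.3, 34.7, 26.9 and 28 CPM in LD-vehicle replicates 1 to 5, against 31, 21.3, 21.4, 27.3 and 19.7 CPM in CTRL-vehicle replicates 1 to 5. The groups overlapped, since CTRL-vehicle replicate 1 was above 3 of the light-damaged libraries (log2 fold change 0.29, SE 0.12, adjusted p = 0.129). Lipoprotein lipase, Lpl (ENSMUSG00000015568), stood at 24.3, 22, 21.6, 19.6 and 20.6 CPM in LD-vehicle replicates 1 to 5, against 21.5, 20.4, 18, 17 and 16.4 CPM in CTRL-vehicle replicates 1 to 5. Its groups overlapped too, and the fold change was small (log2 fold change 0.21, SE 0.09, adjusted p = 0.12). Lgals3 (galectin-3), which binds sugars on dying cells, stood at 8.11, 9.26, 8.66, 1.55 and 1.89 CPM in LD-vehicle replicates 1 to 5, against 2.26, 1.29, 6.08, 1.97 and 2.19 CPM in CTRL-vehicle replicates 1 to 5. LD-vehicle replicates 1 to 3 were above all controls, and replicates 4 and 5 were near the bottom of the control range (log2 fold change 1.08, SE 0.63, adjusted p = 0.287). Ly86 (MD-1), a partner of a Toll-like receptor relative, did not pass (log2 fold change 0.24, SE 0.28, adjusted p = 0.597).

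Levels can be set against each other per kilobase of transcript, here of the longest annotated one. Spp1 was the most abundant marker, at 19.6 CPM per kb in light damage and 16 in controls, followed by Ctss at 17.3 in light damage and 10.5 in controls. Among resting markers Olfml3 was the highest, at 4.25 CPM per kb in light damage and 2.06 in controls. Tmem119 followed at 2.03 in light damage and 1.45 in controls. No test was made between levels of different genes.

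Resting and activated markers were then compared in each library. A class score was taken as the mean over its tested genes of log2 CPM centred over the 10 libraries. The resting score, over 5 genes, was 0.32, 0.81, 0.41, -0.12 and -0.02 in LD-vehicle replicates 1 to 5, against 0.03, -0.35, -0.38, -0.21 and -0.49 in CTRL-vehicle replicates 1 to 5. The activated score, over 8 genes, was 0.24, 0.75, 1.02, -0.31 and -0.13 in LD-vehicle replicates 1 to 5, against -0.21, -0.69, -0.02, -0.19 and -0.46 in CTRL-vehicle replicates 1 to 5. Both scores were above all controls in LD-vehicle replicates 1, 2 and 3 and within the control range in LD-vehicle replicates 4 and 5. For LD-vehicle replicate 1 this rested on Gpnmb, Lgals3 and Olfml3. Without these genes, a choice made after their values were seen, its activated score was -0.15 and its resting score 0.12. Controls then reached at most -0.04 for the activated score and 0.18 for the resting score. The activated score of LD-vehicle replicate 5 was then 0.06, above all controls. The shared score, over 20 genes, was -0.06, 0.68, 1.06, -0.19 and -0.20 in LD-vehicle replicates 1 to 5, against -0.18, -0.21, 0.06, -0.35 and -0.62 in CTRL-vehicle replicates 1 to 5, with LD-vehicle replicates 2 and 3 above all controls.

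The balance between the classes did not separate the groups. The activated score minus the resting score was -0.08, -0.06, 0.60, -0.20 and -0.11 in LD-vehicle replicates 1 to 5, against -0.24, -0.34, 0.37, 0.03 and 0.03 in CTRL-vehicle replicates 1 to 5. LD-vehicle replicate 3 held the highest difference and CTRL-vehicle replicate 3 the next, and the others overlapped. The group means were 0.03 ± 0.32 in light damage and -0.03 ± 0.28 in controls (SD, n = 5 each), 0.06 apart, which is less than the spread within either group. Without Gpnmb, Lgals3 and Olfml3, a choice made after their values were seen, the groups were -0.02 apart, and without LD-vehicle replicate 3 they were -0.08 apart. By class, edgeR called 0 of 5 resting markers, 0 of 8 activated markers and 1 of 20 shared markers higher, and 0 lower in each. Over all genes it called 5.32% higher and 7.85% lower. Before adjustment, 4 resting, 5 activated and 9 shared markers were higher with p under 0.05, where 14% of all genes were. DESeq2, which called 7.77% of all genes higher, called 1 resting, 1 activated and 4 shared markers. The median log2 fold change was 0.54 for resting, 0.59 for activated and 0.58 for shared markers, which was 0.37 without LD-vehicle replicate 3.

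**Figure D4:**
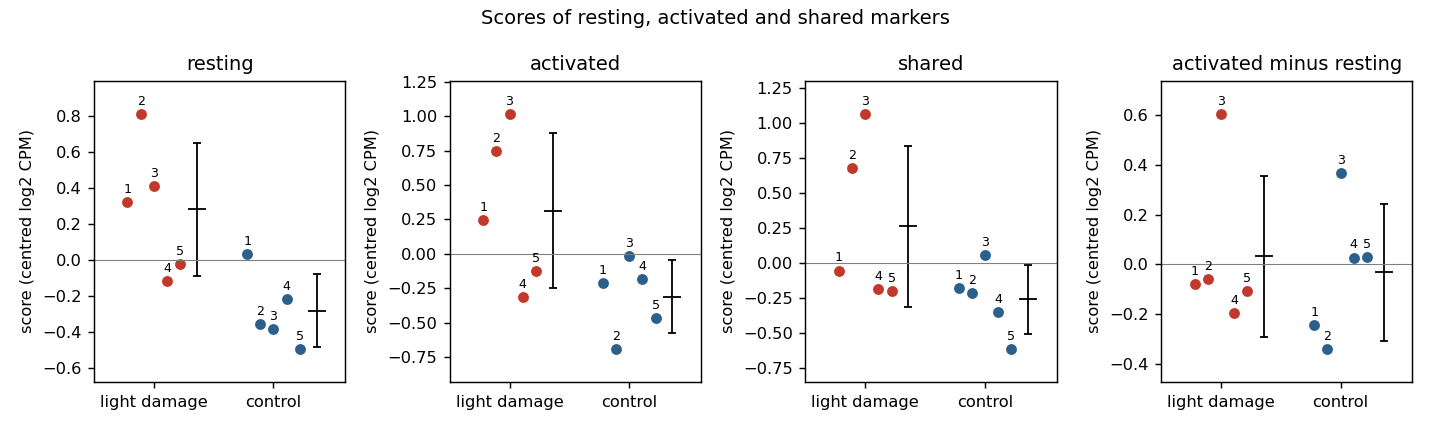
Class scores in each library, as the mean centred log2 CPM of 5 resting, 8 activated and 20 shared markers, and the activated minus the resting score, with the replicate number beside each point and the mean ± SD of each group to its right. LD-vehicle replicates 1 to 3 are above the controls for both resting and activated markers, and the difference between the classes overlaps between the groups. Without Gpnmb, Lgals3 and Olfml3, LD-vehicle replicate 1 is within the control range for both classes (not drawn).

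Other genes of resting microglia, from a list that shares no gene with the markers, were measured beside them. Of 20 tested, 4 rose and 0 fell, DESeq2 called 7 higher, and the median log2 fold change was 0.58. Over all genes, edgeR called 5.32% higher and 7.85% lower, and DESeq2 called 7.77% higher. Without LD-vehicle replicate 3 the median of the 20 was 0.35 and 2 were called. Likewise 2 were called without LD-vehicle replicate 2 or any 1 of CTRL-vehicle replicates 2 to 5. In these fits, between 2.34% and 4.79% of all genes were called higher. Csf1r, the receptor for the survival factors CSF1 and IL-34, stood at 22.7, 27.7, 32.2, 17.4 and 19.1 CPM in LD-vehicle replicates 1 to 5, against 17, 13.7, 13, 14.7 and 14.7 CPM in CTRL-vehicle replicates 1 to 5. The groups did not overlap (log2 fold change 0.71, SE 0.15, adjusted p = 0.0132, edgeR), and without LD-vehicle replicates 1 and 2 the log2 fold change was 0.65 (adjusted p = 0.0818). The others that rose were the tetraspanin Cd81 (204 ± 11.3 CPM in light damage and 166 ± 6.95 CPM in controls; log2 fold change 0.30, SE 0.06, adjusted p = 0.00424, edgeR), the matrix protein Sparc (397 ± 106 CPM in light damage and 252 ± 21.8 CPM in controls; log2 fold change 0.65, SE 0.17, adjusted p = 0.0356, edgeR) and the selectin ligand Selplg (7.76 ± 2.43 CPM in light damage and 4.84 ± 1.09 CPM in controls; log2 fold change 0.68, SE 0.20, adjusted p = 0.0402, edgeR). Cd81 and Sparc are made by many cell types, glia and vessels included. Without LD-vehicle replicates 1 and 2, none of the 20 was called, where 0.782% of all genes were called higher, and the median was 0.34. In the fit of all libraries, 18 of the 20 had positive and 2 negative fold changes. Mef2c was the lowest (log2 fold change -0.25, SE 0.09, adjusted p = 0.081, edgeR).

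Other genes of damage-associated and inflammatory microglia gave 4 of 22 higher and 0 lower, with 7 higher by DESeq2 and a median log2 fold change of 0.48. Of all genes, edgeR called 5.32% higher and DESeq2 7.77%. The edgeR count on this list was 2 without LD-vehicle replicate 2, LD-vehicle replicate 3, CTRL-vehicle replicate 2 or CTRL-vehicle replicate 5. Between 2.34% and 3.77% of all genes were called higher in those fits. It was 7 without LD-vehicle replicate 5, where 5.78% of all genes were. The genes of this list that rose were cathepsins and a lysosomal tetraspanin. Ctsz had means of 55.7 ± 8.88 CPM in light damage and 40.3 ± 3.82 CPM in controls (SD, n = 5 each; log2 fold change 0.47, SE 0.10, adjusted p = 0.00777, edgeR). Ctsd had means of 224 ± 25.2 CPM in light damage and 173 ± 14.8 CPM in controls (log2 fold change 0.37, SE 0.08, adjusted p = 0.00781, edgeR). Cd63 had means of 62.5 ± 8.15 CPM in light damage and 44.7 ± 9.49 CPM in controls (log2 fold change 0.48, SE 0.14, adjusted p = 0.0417, edgeR). Ctsl had means of 164 ± 44 CPM in light damage and 109 ± 4.95 CPM in controls (log2 fold change 0.58, SE 0.16, adjusted p = 0.0422, edgeR). Ctsz was the 1 gene of this list still called without LD-vehicle replicates 1 and 2, at a log2 fold change of 0.53 (adjusted p = 0.0322). These cathepsins are lysosomal enzymes of many cell types and not of microglia alone. Of the inflammatory signals on this list, Il1b, Tnf and Ccl2 were too low to test. Il1b had 4, 2, 3, 0 and 0 counts in LD-vehicle replicates 1 to 5, against 4, 0, 7, 0 and 0 counts in CTRL-vehicle replicates 1 to 5. Tnf had 2, 3, 3, 2 and 0 counts in LD-vehicle replicates 1 to 5, against 0, 2, 4, 0 and 0 counts in CTRL-vehicle replicates 1 to 5. Ccl2, a chemokine that draws monocytes, had 2, 8, 22, 10 and 1 counts in LD-vehicle replicates 1 to 5, against 0, 5, 22, 1 and 0 counts in CTRL-vehicle replicates 1 to 5. The interferon-induced chemokine Cxcl10 had 4, 23, 51, 77 and 1 counts in LD-vehicle replicates 1 to 5, against 16, 46, 228, 2 and 2 counts in CTRL-vehicle replicates 1 to 5, with its highest value in CTRL-vehicle replicate 3 (log2 fold change -1.02, SE 1.26, adjusted p = 0.629). Tlr2, a receptor for bacterial lipoproteins, did not pass (log2 fold change 0.52, SE 0.49, adjusted p = 0.508).

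The kinases and adaptors that act below TYROBP gave 0 of 16 higher and 0 lower by edgeR and 0 in either direction by DESeq2. Their median log2 fold change was 0.69. At an unadjusted p under 0.05, 5 were higher and 1 lower, where 14% of all genes were higher. The lower one was the adaptor Lat2 (log2 fold change -0.66, SE 0.30, adjusted p = 0.148). Without LD-vehicle replicate 3 the median was 0.35, and edgeR called 2 higher without LD-vehicle replicate 5 and 1 without CTRL-vehicle replicate 2. The lowest p belonged to the kinase Syk, at 0.839, 2.12, 1.66, 1.05 and 0.891 CPM in LD-vehicle replicates 1 to 5, against 0.654, 1.22, 0.597, 0.507 and 0.411 CPM in CTRL-vehicle replicates 1 to 5. LD-vehicle replicates 2 and 3 were above all controls (log2 fold change 0.96, SE 0.34, adjusted p = 0.0716). The lipid kinase Pik3cg (log2 fold change 0.80, SE 0.30, adjusted p = 0.0798) and the phosphatase Ptpn6 (log2 fold change 0.72, SE 0.27, adjusted p = 0.0889) followed.

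**Figure D5:**
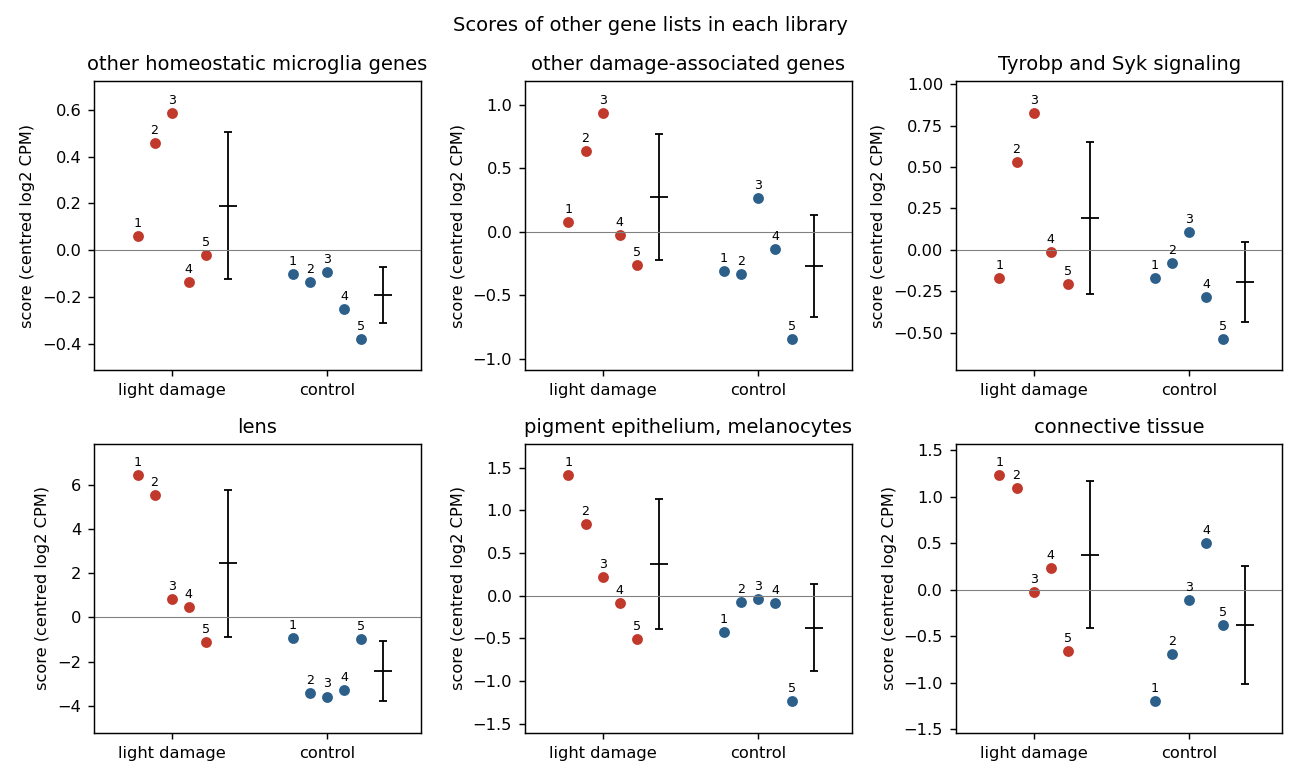
Mean centred log2 CPM of other gene lists in each library: other homeostatic microglia genes, other damage-associated genes, Tyrobp and Syk signaling, lens, pigment epithelium with melanocytes, and connective tissue; numbers beside points are replicates and bars are the mean ± SD of each group. LD-vehicle replicates 2 and 3 are on top in the 3 microglial lists, and LD-vehicle replicates 1 and 2 are on top in the lens, pigment cell and connective tissue lists.

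Markers of blood cells that could add to these genes were measured too, and their part in the results above was not tested. Of 10 monocyte markers 3 could be tested, with 0 higher by edgeR and 0 by DESeq2, which called 1 lower. Their summed level was 51.3 to 75.8 CPM in light damage and 52.9 to 76.7 CPM in controls, most of it from Fn1, the fibronectin gene (log2 fold change -0.26, SE 0.09, adjusted p = 0.0647). The defining monocyte receptor Ccr2 had 2, 7, 15, 0 and 3 counts in LD-vehicle replicates 1 to 5, against 1, 0, 0, 2 and 0 counts in CTRL-vehicle replicates 1 to 5, and Ly6c2 had 1, 4, 12, 1 and 0 counts in LD-vehicle replicates 1 to 5, against 2, 0, 0, 0 and 0 counts in CTRL-vehicle replicates 1 to 5. Both were highest in LD-vehicle replicate 3 and next in replicate 2. Of 10 border macrophage markers 2 could be tested, Stab1 (log2 fold change 0.51, SE 0.23, adjusted p = 0.157) and Lyve1 (log2 fold change 0.17, SE 0.11, adjusted p = 0.314), with 0 called by edgeR or DESeq2 and 1 at an unadjusted p under 0.05, and their summed level was 17.4 to 23.6 CPM in light damage and 15.3 to 19.0 CPM in controls. The 2 tested lymphocyte markers, Lck (log2 fold change 0.48, SE 0.31, adjusted p = 0.311) and Ccl5 (log2 fold change 0.38, SE 0.56, adjusted p = 0.688), gave 0 called by edgeR or DESeq2 and 0 at an unadjusted p under 0.05, and the sum of that list was 1.56 to 3.50 CPM in light damage and 1.37 to 2.12 CPM in controls. Of 10 neutrophil markers, Mmp9 alone was analysed here (log2 fold change 0.19, SE 0.07, adjusted p = 0.0677, edgeR; called by DESeq2, and by edgeR without CTRL-vehicle replicate 1), and its groups did not overlap, at 25.6 to 27.2 CPM in light damage and 21 to 25.4 CPM in controls. The 4 red cell genes gave 0 called by edgeR or DESeq2 and 0 at an unadjusted p under 0.05, with a sum of 11.9 to 24.2 CPM in light damage and 13.1 to 18.2 CPM in controls. Hbb-bs had the lowest p of these (log2 fold change 0.34, SE 0.21, adjusted p = 0.296), and 1 red cell gene was called without LD-vehicle replicate 1.

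Of the other tissues, lens genes gave 3 of 9 higher by edgeR and 9 by DESeq2, where these called 5.32% and 7.77% of all genes higher. Those called by edgeR were the crystallins Crybb2 (log2 fold change 7.48, SE 2.01, adjusted p = 0.0457), Cryba1 (log2 fold change 7.76, SE 2.12, adjusted p = 0.0479) and Cryba4 (log2 fold change 6.71, SE 1.84, adjusted p = 0.0486). How reads were divided between related crystallins was not examined. The number of lens genes called by edgeR was 8 without LD-vehicle replicate 5, 1 without LD-vehicle replicate 4 and 0 without any 1 of the other libraries. Without LD-vehicle replicates 1 and 2 together it was 2, where 0.782% of all genes were called higher. All 9 lens genes then kept a positive fold change, with a median log2 fold change of 2.62. The lens list had a summed 21.4 to 7520 CPM in light damage and 3.28 to 31.4 CPM in controls. Pigment epithelium and melanocyte genes gave 1 of 11 higher, Rlbp1 (log2 fold change 0.38, SE 0.08, adjusted p = 0.00612), and 0 without LD-vehicle replicates 1 and 2, with a summed 529 to 820 CPM in light damage and 431 to 476 CPM in controls. Most of this sum came from Rlbp1, with means of 474 CPM in light damage and 366 CPM in controls. Rlbp1 is also on the list of Müller glia and astrocytes. Connective tissue genes gave 1 of 10 higher, Mfap4 (log2 fold change 3.55, SE 0.94, adjusted p = 0.0441), 3 without LD-vehicle replicate 5 and 0 without any 1 of the other libraries, with a summed 39.4 to 239 CPM in light damage and 35.7 to 82.5 CPM in controls. The markers of Müller glia and astrocytes gave 4 of 12 higher, with a median log2 fold change of 0.29, and 1 without LD-vehicle replicates 1 and 2. Beside Rlbp1 these were Dkk3 (log2 fold change 0.47, SE 0.08, adjusted p = 0.00309), Clu (log2 fold change 0.66, SE 0.15, adjusted p = 0.0182) and Slc1a3 (log2 fold change 0.31, SE 0.08, adjusted p = 0.0202). Of the 12, 10 had positive and 2 negative fold changes. Pax2 was the lowest (log2 fold change -0.69, SE 0.26, adjusted p = 0.0885, edgeR). Without LD-vehicle replicate 3 it was called lower (log2 fold change -0.91, adjusted p = 0.0493, edgeR). Genes of endothelium and pericytes gave 0 of 12 by edgeR, 2 by DESeq2 and 2 at an unadjusted p under 0.05, Ly6c1 (log2 fold change 0.39, SE 0.13, adjusted p = 0.0567) and Cldn5 (log2 fold change 0.39, SE 0.13, adjusted p = 0.0642). The edgeR count was 2 without LD-vehicle replicate 5 and 1 without CTRL-vehicle replicate 3. Ganglion cell markers gave 0 of 12 by edgeR, 0 by DESeq2 and 1 at an unadjusted p under 0.05, Thy1 (log2 fold change 0.18, SE 0.07, adjusted p = 0.114), with 3 called by edgeR without CTRL-vehicle replicate 1.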

How the data were processed

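The data are RNA-seq counts of 10 retinal libraries, 5 of light damage and 5 of controls. The authors deposited whole-number counts per gene, which per the submitters' processing notes involved Bowtie2, RSEM 1.3.1, DESeq2 1.4.5 and the GRCm39 build. The sources used here do not say whether the counts are rounded RSEM estimates or used strand. All columns belonged to these libraries (0 of other samples). Groups and replicate numbers came from the titles. Nothing says that libraries come from separate animals, so p-values measure only the spread between these libraries.

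Symbols came from GENCODE M21 by identifier (19892 matched), as did the longest transcript lengths. The fits were made with edgeR 4.0.16, DESeq2 1.42.0 and limma 3.58.1 under R 4.3.3, and plots with Python 3.11.15. filterByExpr kept 16852 genes with 99.8% to 99.9% of counts. TMM scaling, the robust quasi-likelihood test of light damage over control, and Benjamini-Hochberg adjustment over all genes followed, with calls at an adjusted p under 0.05. Standard errors derive from the F statistic. Scores used log2 CPM with a prior count of 2. Scripts were checked on counts with known changes.

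The markers, classes and 14 context lists were chosen with earlier results of these data known. Values in every library are given for markers called in any planned fit, the 3 with the lowest p of each class and the most abundant per kilobase. Cd14, Cd68, Lyz2, Lgals3 and Spi1 were added after their values were seen. From each context list, called genes are named, or up to 3 with the lowest p where none was called. Il1b, Tnf, Ccl2, Cxcl10, Tlr2, Lat2, Ccr2, Ly6c2, Cd3e, Mef2c, Pax2, Rpe65 and Dct were added after their values were seen. Alternatives were RLE factors, library totals, other filters, DESeq2, limma-voom, the replicate number as a block, and libraries left out. No pair of libraries was identical, and counts of each of the 45 pairs differed beyond sampling noise (chi-square per degree of freedom 5.77 to 39.3).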

Additional observations from a re-analysis of the deposited data

Results flagged for a closer look

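Within groups of 5 libraries, 1 library lay far from the other 4, by Dixon's criterion, for 5 of 76 combinations of measure and group, where chance gives about 1 in 20. The activated minus resting score of LD-vehicle replicate 3 was 0.60, against -0.20 to -0.06 in the other light-damaged libraries. Spi1, the gene of PU.1, stood at 3.45 CPM in LD-vehicle replicate 3 and at 1.06 to 1.65 CPM in the other light-damaged libraries. Among controls, CTRL-vehicle replicate 3 had 2.39 CPM of the leukocyte phosphatase Ptprc, against 0.761 to 1.22 CPM in the other controls, and 6.08 CPM of Lgals3, against 1.29 to 2.26 CPM. Coro1a stood at 7.40 CPM in CTRL-vehicle replicate 5, below the 8.12 to 8.36 CPM of the other controls.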

How the results depend on the processing

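Coro1a was called higher in every alternative fit, and 0 markers were called lower in any. The count of markers called higher, 1 in the reported fit, was 6 with DESeq2 (Tyrobp, Ctss, Olfml3, Gpnmb, Adgre1 and Coro1a) and between 1 and 5 when each library was left out in turn. Beside Coro1a, Tyrobp was called without LD-vehicle replicate 1 (2 in all), Fcgr2b, Gpnmb and Adgre1 without LD-vehicle replicate 4 (4 in all), Tyrobp, Olfml3, Gpnmb and Adgre1 without LD-vehicle replicate 5 (5 in all), and Fcgr3, Gpr34, Spp1 and Lpl without CTRL-vehicle replicate 1 (5 in all). Of all genes, 2.58%, 3.84%, 5.78% and 7.91% were called higher in these fits, in that order, against 5.32% in the reported fit. Resting markers called numbered 0 in the reported fit, 1 with DESeq2 and 0 to 1 with a library left out. Activated markers numbered 0, then 1 with DESeq2 and 0 to 2 with a library left out. Shared markers numbered 1, then 4 with DESeq2 and 1 to 3 with a library left out. With the replicate number as a block, 6 markers were called (Tyrobp, Fcgr2b, Fcgr3, Adgre1, Dock2 and Coro1a), all 6 of them shared, and 31 context genes, where 8.49% of all genes were called higher, against 5.32% without the block. The labels do not say whether the numbers pair the libraries. Same-numbered libraries correlated at 0.07, 0.06, 0.32, 0.05 and 0.06 in their deviations. Of the light-damaged libraries, 2 of 5 correlated best with their own number. Each correlation rests on 1 pair of libraries, so these values cannot settle whether the libraries were paired. Context genes called numbered 16, then 37 with DESeq2, 4 without LD-vehicle replicates 1 and 2, and 8 to 31 with a library left out, 31 being without LD-vehicle replicate 5 and 8 without LD-vehicle replicate 2, LD-vehicle replicate 3 or CTRL-vehicle replicate 5. It was 9 without CTRL-vehicle replicate 2 or 4. The sign of the log2 fold change turned for Sall1 without LD-vehicle replicates 1 and 2 (-0.015), and for Cd68 (-0.018), Fcer1g (-0.020) and Ly86 (-0.051) without LD-vehicle replicate 3; the cause was not tested. With a library left out, those fold changes reached at most 0.76 for Cd68, 0.48 for Fcer1g and 0.39 for Ly86. The activated minus resting difference between the groups stayed between -0.08 and 0.16 in all alternatives. RLE factors, library totals, either filter and limma-voom left the markers' counts at 1 higher and 0 lower. Medians of the classes, roles and context lists with libraries left out were chosen after seeing the data. Itgax, Msr1 and Mrc1 had too few counts to be tested at this depth.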
